A study of Mus musculus with 9 samples.

Results

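Tight and adherens junctions were described here through 9 of the 54532 genes in the deposited table of mouse intestine: the scaffold Tjp1, the membrane protein occludin (Ocln), the claudins Cldn2, Cldn3, Cldn4, Cldn7, Cldn15 and Cldn23, and the cadherin Cdh1. They were chosen by name, and all 9 were found. RNA of whole intestine had been sequenced in 9 libraries, 3 of each of 3 groups of mice. Control mice were given corn oil by gavage. IR mice were given corn oil and 12 Gy of irradiation to the whole abdomen on day 4. IR+LYC mice were given the same irradiation and lycopene, a plant carotenoid, at 10 mg/kg/day in corn oil for 10 days. IR and control differed in irradiation, and IR+LYC and IR in lycopene. A group given lycopene without irradiation is not analysed here. The strain, age, sex and gut segment are not given in the sources used here. Nothing in them says that the 3 libraries of a group came from separate animals, and p-values measure the spread between these libraries.

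Epithelial cells of the gut are sealed to their neighbours by tight junctions near the lumen and held together by adherens junctions below them. Claudins span the membrane and set what passes between the cells: some form pores for ions and water, others tighten the seal. Occludin lies in the same strands, Tjp1 (ZO-1) ties them to actin, and Cdh1 (E-cadherin) is the adhesion molecule of the adherens junction. In the mouse small intestine Cldn2 is known as a claudin of the crypts, where cells divide, while absorptive enterocytes line the villi.

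Levels are FPKM, fragments per kilobase of transcript scaled to the depth of the library, which may be compared between genes. Whole reads could be recovered from the deposited values, and the libraries held between 17803889 and 22414949 reads on genes. Each junction gene was covered by at least 320 reads in every library. The library labelled IR+LYC 2 stood apart from the others of its group: Spearman's rank correlation across genes was 0.874 with IR+LYC 1 and 0.922 with IR+LYC 3, against 0.963 between those 2. Of 9 colon markers, Aqp8 was at 0 in all 9 libraries and Car1 and Hoxb13 in 8 each, while the other 6 were above 0 in all, with a sum over the list of 19.1 to 62.8 FPKM. Markers of villus enterocytes were present in all 9 libraries. The summed FPKM of 16 such markers ranged from 22677 to 30395 in control, from 4154 to 23934 in IR and from 1484 to 28325 in IR+LYC. It was lowest in IR+LYC 1, IR 2 and IR+LYC 3. Ileal markers also varied, from 130.1 to 1710.1 FPKM in sum, and those of duodenum and jejunum from 136 to 4839, and the part of the sampled segment in the results was not tested.

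To show the regulatory sequence in front of claudins that the results turn on, windows of 250 bases before the transcription start are given. Cldn2 and Cldn7 were taken since their IR libraries lay on opposite sides of the controls in FPKM. Cldn3 and Cldn4 were taken since they lie next to each other. These windows use the first of 2 annotated starts for Cldn7. They are from RefSeq on GRCm38.p6, 5′ to 3′ on the strand of the gene, at chrX:139800558-139800807 (+) for Cldn2, chr11:69964529-69964778 (+) for Cldn7, chr5:134985964-134986213 (+) for Cldn3 and chr5:134946935-134947184 (-) for Cldn4. Capitals mark matches, on either strand, to any of 6 motifs: the GATA core AGATAA, the CDX core TTTATG, an HNF4-selective site CAAAGTCCA, the GC box GGGCGG, the Snail-type E-box CAGGTG and the TATA box TATAAA.
Cldn2: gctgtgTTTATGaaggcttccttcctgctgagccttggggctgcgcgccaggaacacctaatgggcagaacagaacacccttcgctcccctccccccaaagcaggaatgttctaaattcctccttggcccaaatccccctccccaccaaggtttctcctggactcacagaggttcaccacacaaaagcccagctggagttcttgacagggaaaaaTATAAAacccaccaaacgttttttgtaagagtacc
Cldn7: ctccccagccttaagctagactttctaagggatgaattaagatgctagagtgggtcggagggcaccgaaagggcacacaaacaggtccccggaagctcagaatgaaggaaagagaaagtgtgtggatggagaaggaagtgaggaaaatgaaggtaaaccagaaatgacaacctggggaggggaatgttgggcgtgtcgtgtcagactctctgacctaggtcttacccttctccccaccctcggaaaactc
Cldn3: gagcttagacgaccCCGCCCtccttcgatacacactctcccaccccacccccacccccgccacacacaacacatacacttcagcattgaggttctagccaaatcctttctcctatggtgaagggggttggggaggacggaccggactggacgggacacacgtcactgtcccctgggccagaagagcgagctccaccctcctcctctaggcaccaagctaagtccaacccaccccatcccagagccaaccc
Cldn4: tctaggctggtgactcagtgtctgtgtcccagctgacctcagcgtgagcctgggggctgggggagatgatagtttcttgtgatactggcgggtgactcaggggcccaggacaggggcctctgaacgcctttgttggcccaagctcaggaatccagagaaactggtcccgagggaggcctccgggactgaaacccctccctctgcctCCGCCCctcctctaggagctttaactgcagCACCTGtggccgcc
The Cldn2 window held a CDX core from -244 to -239 and a TATA box from -35 to -30, counted from the start site. Of 32851 RefSeq windows of the same length, 10.8% held a CDX core and 12.4% a TATA box. The Cldn7 window shown held none of the 6. The window of its other start, which overlaps annotated exons and is not shown, held a GC box from -6 to -1 and E-boxes from -97 to -92 and from -57 to -52. Cldn3 and Cldn4 each had a GC box, as did 32.7% of all windows, and Cldn4 also had an E-box (17.2% of all windows). A match describes the letters only.

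Cldn2, which forms pores for cations and water, was the member with the widest difference between irradiated and control libraries. Its level was 22.4, 25.1 and 26.2 FPKM in the control libraries, 43.8, 74.1 and 35.7 in the IR libraries and 71.2, 39.0 and 58.8 in the IR+LYC libraries. All 6 irradiated libraries lay above all 3 controls, and the IR and IR+LYC libraries overlapped. The means were 24.5 ± 1.91, 51.2 ± 20.2 and 56.3 ± 16.3 FPKM (SD, n = 3 each). On the log2(FPKM + 1) scale, IR exceeded control by 0.97 (SE 0.30, 95% interval 0.29 to 1.65), a fold of 1.95 (limma over 15391 genes, adjusted p = 0.450). IR+LYC exceeded control by 1.13 (SE 0.30, 95% interval 0.45 to 1.81; limma adjusted p = 0.285), and the 2 comparisons share their controls. IR+LYC and IR differed by 0.16 (95% interval -0.52 to 0.84; limma adjusted p = 0.994). The adjusted threshold of 0.05 was thus not passed in any comparison. Without IR+LYC 2, the difference of IR+LYC from control was 1.37 and passed it (limma adjusted p = 0.0248).

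The gene lies on chromosome X from 139800828 to 139811386 (+ strand). The summed FPKM of 12 crypt and stem cell markers was 502 to 564 in control, 582 to 647 in IR and 515 to 973 in IR+LYC. Its highest values were in IR+LYC 1 (973), IR+LYC 3 (911) and IR 2 (647), the 3 libraries with the most Cldn2. These are also the 3 with the lowest villus markers. In such bulk tissue, fewer cells of a type and less RNA per cell cannot be told apart, and the part of cell composition in the difference of Cldn2 was not tested. Set against 10 pan-epithelial genes of the same library, Cldn2 lay 0.93 higher in IR than in control on the log2 scale (SE 0.32; limma adjusted p = 0.579). This scale does not account for the mix of crypt and villus cells.

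**Figure D1:**
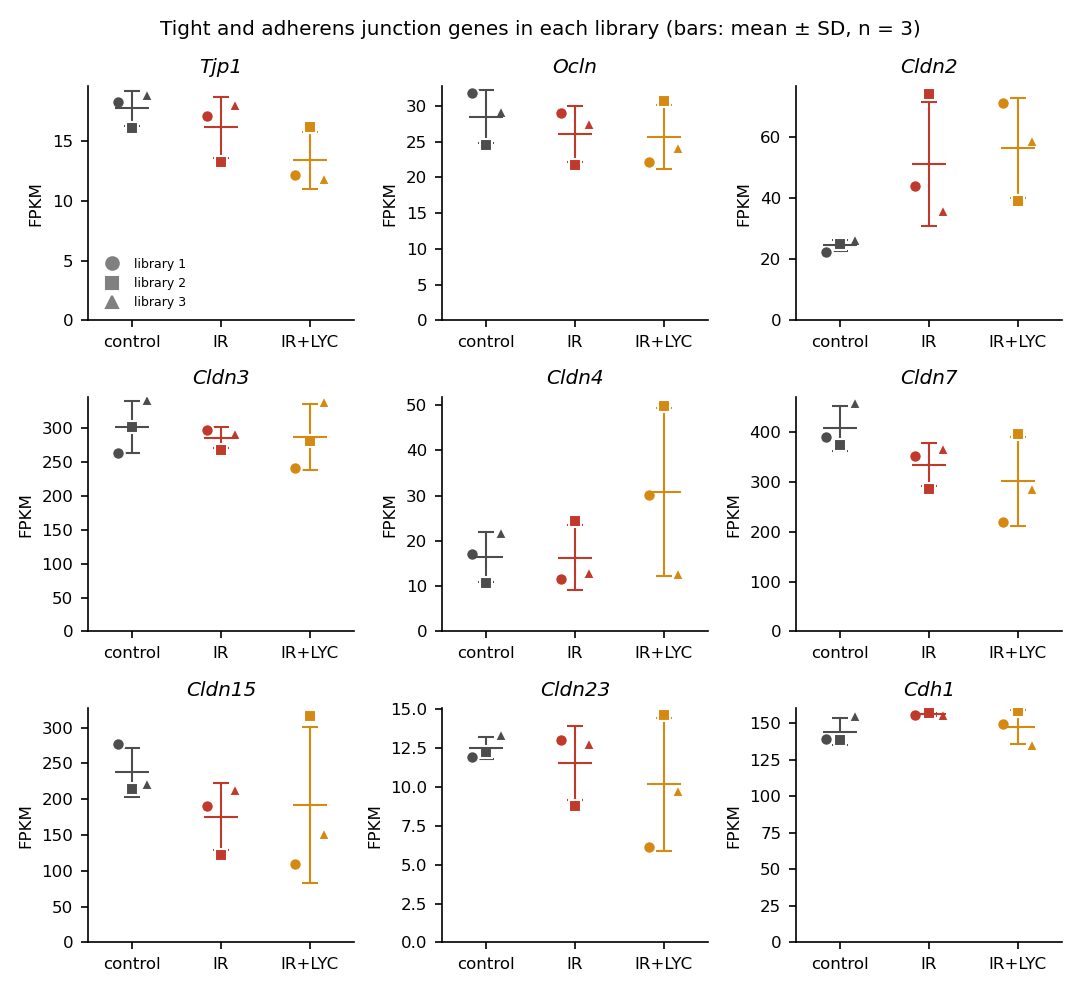
FPKM of the 9 junction genes in each of the 9 libraries (circle, square and triangle for libraries 1, 2 and 3; bars, mean ± SD, n = 3; each axis starts at 0). Cldn2 lies between 35.7 and 74.1 FPKM in the irradiated libraries and between 22.4 and 26.2 in control, while Cdh1 stays between 135 and 158 in all 9.

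Cldn15, the other pore-forming claudin, carries sodium between intestinal cells and was an abundant claudin here. Its level was 277, 215 and 222 FPKM in the control libraries, 191, 123 and 212 in the IR libraries and 109, 316 and 151 in the IR+LYC libraries. In FPKM, though not per recovered read, all 3 IR libraries lay below all 3 controls. IR+LYC held both the lowest and the highest FPKM of the 9. The log2 difference was -0.47 for IR against control (SE 0.39; limma adjusted p = 0.682), 0.02 for IR+LYC against IR and -0.45 for IR+LYC against control (limma adjusted p = 0.531). Without IR+LYC 2, IR+LYC was 0.88 below control on that scale (difference -0.88; limma adjusted p = 0.0486). The gene is on chromosome 5, from 136966616 to 136975858 (+ strand).

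The ratio of both pore formers separated control from irradiated libraries. The FPKM of Cldn15 was 12.4, 8.57 and 8.48 times that of Cldn2 in the control libraries, 4.36, 1.66 and 5.95 times in the IR libraries and 1.53, 8.10 and 2.57 times in the IR+LYC libraries. Every irradiated library had a lower ratio than every control, though IR+LYC 2 came close to the controls. The log2 ratio of Cldn2 over Cldn15 was 1.46 higher in IR and 1.61 higher in IR+LYC than in control. Each had an exact two-sided permutation p = 0.1, the smallest that 3 against 3 libraries allow. For IR, the separation follows from the levels of both genes given above, so the ratio and its p-value add no further evidence. IR+LYC and IR differed by 0.14 (exact permutation p = 0.9).

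Cldn7, which lines the sides of epithelial cells and is required for an intact gut lining in mice, was the claudin with the highest mean in each group, although Cldn3 exceeded it in IR+LYC 1 and IR+LYC 3. It measured 389, 375 and 458 FPKM in the control libraries, 351, 286 and 367 in the IR libraries and 220.3, 397 and 286 in the IR+LYC libraries. The IR libraries all lay below the controls in FPKM, though not per recovered read, while IR+LYC 2 lay among the controls. The log2 difference was -0.29 for IR against control (SE 0.24; limma adjusted p = 0.683), -0.18 for IR+LYC against IR and -0.47 for IR+LYC against control (limma adjusted p = 0.376). Leaving out IR+LYC 2 gave -0.69 for the last (limma adjusted p = 0.0365). The gene is on chromosome 11, from 69964779 to 69967885 (+ strand).

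Cldn3 and Cldn4, both receptors for an enterotoxin of Clostridium perfringens and counted among the sealing claudins, are neighbours on chromosome 5. Cldn4 (134945119 to 134946934, - strand) and Cldn3 (134986214 to 134987472, + strand) are 39279 bases apart with 0 annotated genes between them. Cldn3 measured 264, 302 and 341 FPKM in the control libraries, 298, 268 and 291 in the IR libraries and 241, 280.5 and 339 in the IR+LYC libraries. Its groups overlapped throughout, and its log2 differences were -0.07, -0.01 and -0.08 in the order IR against control, IR+LYC against IR and IR+LYC against control. The 95% interval for IR against control ran from -0.49 to 0.34.

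Cldn4 was lower and far more uneven, at 17.1, 10.7 and 21.7 FPKM in the control libraries, 11.5, 24.5 and 13.0 in the IR libraries and 30.0, 49.7 and 12.8 in the IR+LYC libraries. Its highest value was in IR+LYC 2, and the 3 groups overlapped. The log2 difference of IR+LYC from IR was 0.76, with a 95% interval from -0.37 to 1.89 (limma adjusted p = 0.994), and it was 0.33 without IR+LYC 2. The highest library of Cldn4 held 4.66 times the lowest, against 1.41 times for its neighbour Cldn3.

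Cldn23, known from differentiated cells at the luminal surface, had the lowest mean of the members in each group, although Cldn4 was lower in control 2 and IR 1. It measured 11.9, 12.2 and 13.3 FPKM in the control libraries, 13.0, 8.78 and 12.8 in the IR libraries and 6.13, 14.6 and 9.75 in the IR+LYC libraries. Its lowest values were in IR+LYC 1, IR 2 and IR+LYC 3, the libraries with the lowest villus markers. The log2 differences were -0.13, -0.22 and -0.34 in the same order of comparisons (smallest limma adjusted p = 0.496). It lies on chromosome 8, from 35824712 to 35826559 (- strand).

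**Figure D2:**
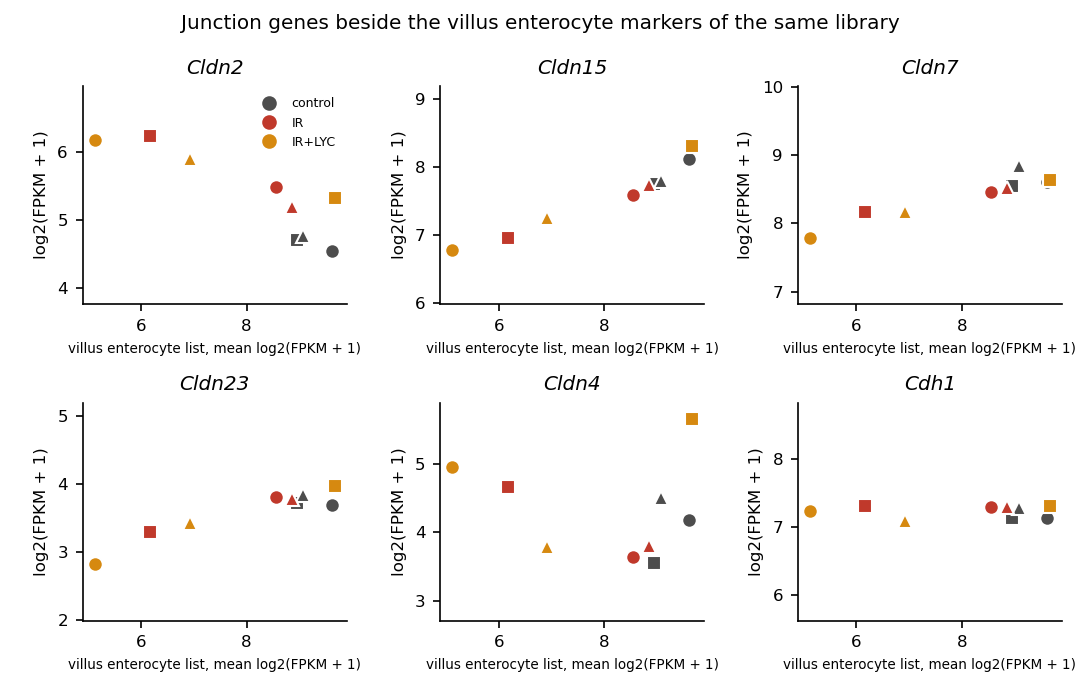
Level of 6 junction genes, as log2(FPKM + 1), against the mean log2(FPKM + 1) of 16 villus enterocyte markers in the same library (colour, group; circle, square and triangle, libraries 1, 2 and 3). On this FPKM scale, the 3 libraries lowest in villus markers are highest in Cldn2 and lowest in Cldn15, Cldn7 and Cldn23, while Cdh1 is level.

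As the plot of junction genes beside villus markers shows, the claudins took different courses along that axis. The mean log2 level of the villus list was 5.12 in IR+LYC 1, 6.17 in IR 2 and 6.92 in IR+LYC 3, and between 8.55 and 9.67 in the other 6 libraries. Cldn15, Cldn7, Cldn23, Tjp1 and Ocln each had their 3 lowest FPKM values in those 3 libraries. There the authors' divisor was also highest against the recovered reads, at 1.26, 1.20 and 1.16 times (0.854 to 0.993 elsewhere), which lowers every FPKM. Per recovered read, Ocln was higher in IR+LYC 1 (2653 of 22414949 reads) than in control 2 (1814 of 18259881). The part of this scaling in the pattern was not tested. The mean of the 10 pan-epithelial genes, a list that includes the intestinal Cdh17, stayed between 6.93 and 7.24 on that scale in all 9 libraries. Single genes moved in opposite directions. Between IR and control, libraries did not overlap for 4 of the 10 upwards and 2 downwards, beside 14.1% and 14% of all genes. IR 1 and IR 3, with Cldn2 at 43.8 and 35.7 FPKM, lay at 8.55 and 8.86 on the villus list, below the lowest control (8.94), and their crypt marker sums of 624 and 582 FPKM were above the highest control (564). IR+LYC 2, with Cldn2 at 39.0 FPKM, lay at 9.67 on the villus list and at a crypt marker sum of 515 FPKM. The highest control had 26.2 FPKM of Cldn2.

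Occludin measured 31.9, 24.5 and 29.2 FPKM in the control libraries, 29.1, 21.7 and 27.5 in the IR libraries and 22.2, 30.7 and 24.1 in the IR+LYC libraries. The groups overlapped, and the log2 differences were -0.13, -0.03 and -0.15 in the same order. The 95% interval for IR against control ran from -0.52 to 0.27, which covers both a lower and a higher level. Ocln is on chromosome 13, from 100496507 to 100552718 (- strand).

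Tjp1 measured 18.3, 16.1 and 18.8 FPKM in the control libraries, 17.1, 13.2 and 18.0 in the IR libraries and 12.1, 16.2 and 11.9 in the IR+LYC libraries. In FPKM, IR+LYC 1 and IR+LYC 3 lay below all other libraries, and IR+LYC 2 overlapped the controls. Per recovered read the order differed. There IR+LYC 2 (1922 of 17834561 reads) lay below IR+LYC 1 (2678 of 22414949) and below control 2 (2201 of 18259881), the lowest control. The log2 difference of IR+LYC from control was -0.39 (SE 0.16; limma adjusted p = 0.346), and -0.52 without IR+LYC 2 (limma adjusted p = 0.0373). Over the 19 alternatives it ranged from -0.52 to -0.17. IR differed from control by -0.14 and IR+LYC from IR by -0.25. Tjp1 lies on chromosome 7, from 65296165 to 65527781 (- strand).

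In FPKM, Cdh1 was the steadiest member. It measured 139, 139 and 155 FPKM in the control libraries, 156, 157 and 156 in the IR libraries and 149.6, 158 and 135 in the IR+LYC libraries. The IR libraries lay just above the controls, and the highest of the 9 libraries was 1.17 times the lowest. Set against recovered reads, Cdh1 varied more, from 11181 of 20107262 in control 1 to 19343 of 22414949 in IR+LYC 1. The authors' divisor was 0.875 and 1.26 times the recovered reads in these libraries. The log2 difference of IR from control was 0.12 (95% interval -0.18 to 0.41; limma adjusted p = 0.730), and the other 2 comparisons gave -0.08 and 0.03. The gene is on chromosome 8, from 106603351 to 106670246 (+ strand).

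**Figure D3:**
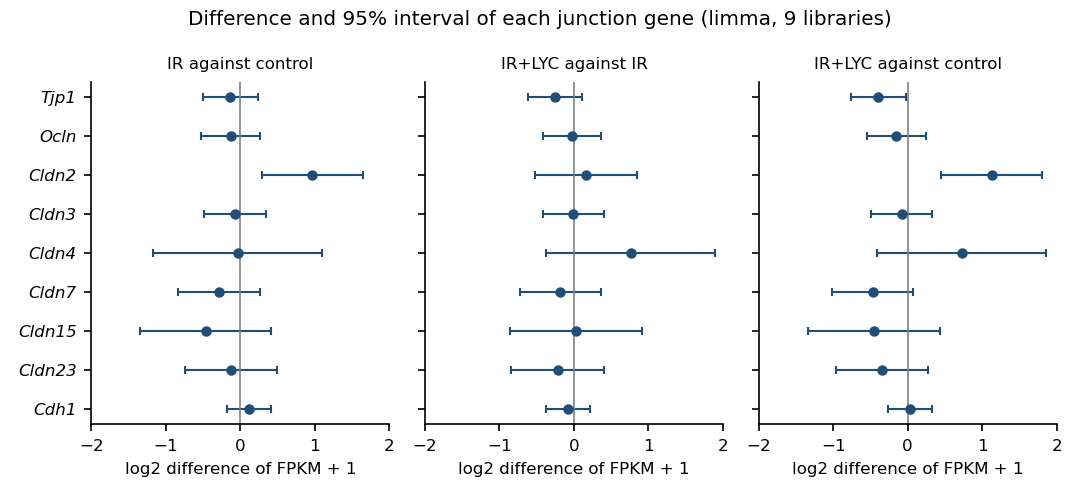
Log2 difference of FPKM + 1 for each junction gene in the 3 comparisons (points) with its 95% interval (bars; limma, 9 libraries). The intervals of Cldn2 lie above 0 for IR and IR+LYC against control, and that of Tjp1 below 0 for IR+LYC against control, before adjustment over all genes.

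Over the 9 members together, 0 passed limma's adjusted threshold of 0.05 in each of the 3 comparisons. Among all 15391 genes tested, 0.0195% passed for IR against control, 0% for IR+LYC against IR and 0.0195% for IR+LYC against control. At an unadjusted p under 0.05, the count was 1 (Cldn2), 0 and 2 (Cldn2 and Tjp1) of 9, beside 8.34%, 4.26% and 14.1% of all genes. Limma-voom on the recovered reads, with the authors' divisor as library size, also called 0 members after adjustment and 1, 0 and 2 before it. With FPKM scaled to recovered reads, a setting chosen after seeing the data, limma called 0 members after adjustment and 1, 0 and 1 before it. In FPKM, libraries did not overlap between IR and control for 4 of 9 members (Cldn2 and Cdh1 higher, Cldn7 and Cldn15 lower). This was so for 28.1% of all genes, 14.1% higher and 14% lower. Per recovered read, Cldn7 and Cldn15 did overlap. Cldn7 had 13463 of 19792860 reads in IR 1 and 13344 of 20107262 in control 1. Cldn15 had 8261 of 18941912 in IR 3 and 7618 of 18008213 in control 3. Between IR+LYC and IR the count was 0 of 9 (7.45% of all genes), and between IR+LYC and control 1 of 9, Cldn2, which was higher (17.5% of all genes, 8.87% higher and 8.64% lower).

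Without IR+LYC 2, 4 of 9 members passed the adjusted threshold for IR+LYC against control, Cldn2 upwards and Tjp1, Cldn7 and Cldn15 downwards. So did 26.8% of all genes, 11.2% upwards and 15.5% downwards. IR against control then called 0.637% of genes and 0 members, and IR+LYC against IR 0% and 0 members. In IR+LYC 1 and IR+LYC 3 the authors' divisor was 1.26 and 1.16 times the recovered reads, against 0.875 to 0.960 in control. A higher divisor lowers every FPKM, and its part in the calls was not tested. Relative to pan-epithelial genes, the same setting called 2 of 9 members and 23% of all genes for IR+LYC against control.

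Within the claudin family, Cldn2 held a larger and Cldn7 a smaller part of the summed FPKM in every irradiated library than in any control. The 6 claudins described here made up 96.3% to 98.6% of the summed FPKM of all 33 annotated claudin genes in each library. Cldn2 took 2.25%, 2.61% and 2.38% of the sum in the control libraries, 4.72%, 9.25% and 3.77% in the IR libraries and 10.1%, 3.51% and 6.67% in the IR+LYC libraries. Its share was higher in all 6 irradiated libraries than in any control (exact permutation p = 0.1 for IR and for IR+LYC against control, the smallest possible; n = 3 each). Cldn7 took 39.0%, 39.1% and 41.7% in the control libraries, 37.9%, 35.7% and 38.7% in the IR libraries and 31.3%, 35.7% and 32.5% in the IR+LYC libraries. All irradiated libraries lay below the controls (exact permutation p = 0.1 for each), by a narrow gap between IR 3 (38.7%) and control 1 (39.0%). As a share of recovered claudin reads, Cldn7 in IR 3 was not below control 1. Unlike its level, the Cldn7 share in IR+LYC 2 was also below the controls. The shares of a library add up to a fixed whole, so 1 share can fall when others rise. In IR+LYC 2, Cldn15 (28.4%) and Cldn4 (4.47%) had their highest shares. The shares of Cldn3 (25.2% to 38.4%), Cldn4 (1.11% to 4.47%), Cldn15 (15.3% to 28.4%) and Cldn23 (0.870% to 1.40%) overlapped between groups.

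**Figure D4:**
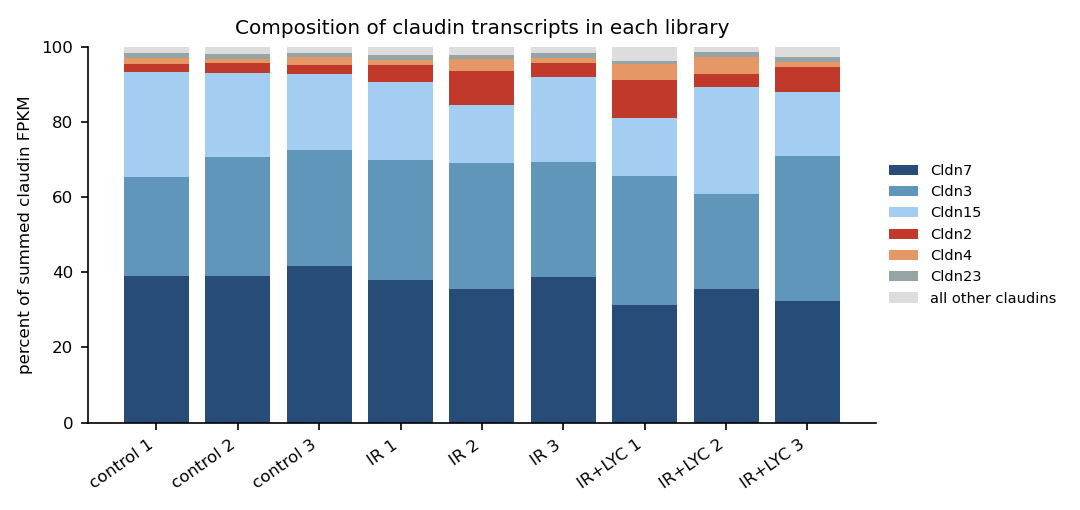
Percent of the summed claudin FPKM held by each of the 6 claudins and by all other claudins in each library (stacked bars, 0 to 100). Cldn2 (red) holds 2.25% to 2.61% of the sum in control and 3.51% to 10.1% in the irradiated libraries.

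In order of level, control ran Cldn7, Cldn3, Cldn15, Cdh1, Ocln, Cldn2, Tjp1, Cldn4 and Cldn23. The ranges of Cldn3 and Cldn15, of Ocln and Cldn2, of Tjp1 and Cldn4 and of Cldn4 and Cldn23 overlapped, so those neighbours did not differ beyond their spread. In IR, Cldn2 stood above Ocln with no overlap.

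Of the 21 other claudins listed and found in the table, only Cldn5 and Cldn12 passed the filter on low values. Cldn12 stayed between 10.4 and 13.4 FPKM. Cldn5, a claudin of blood vessel endothelium, measured 4.21, 5.32 and 3.49 FPKM in the control libraries, 4.02, 5.59 and 3.20 in the IR libraries and 12.6, 2.92 and 11.2 in the IR+LYC libraries. In IR+LYC 1 and IR+LYC 3, where Cldn5 was high, the endothelial marker sum was 55.5 and 53.9 FPKM, against 43.4 to 47.1 in control. The part of vessel content in Cldn5 was not tested.

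Other junction genes were read from 7 lists with 86 tested genes, of which 0 passed the adjusted threshold of limma in each comparison. At an unadjusted p under 0.05, 6 were higher and 2 lower in IR than in control, 9.3% of the 86 beside 8.34% of all genes (3.9% higher, 4.44% lower). In IR+LYC against IR, 0 were higher and 1 lower, 1.16% beside 4.26% (2.26% higher, 1.99% lower). In IR+LYC against control, 2 were higher and 11 lower, 15.1% beside 14.1% (6.6% higher, 7.54% lower). Limma-voom called 0 of all genes in each. The plaque and polarity list, scaffolds and polarity proteins under the tight junction, had 19 tested genes with a median log2 difference of -0.13 for IR against control and -0.34 for IR+LYC against control, beside -0.01 for all genes in both. Amotl2, an angiomotin-like protein of this list, measured 5.52, 5.06 and 6.18 FPKM in the control libraries, 4.10, 3.34 and 4.74 in the IR libraries and 3.16, 4.03 and 3.44 in the IR+LYC libraries, with no irradiated library inside the control range. Its log2 difference was -0.39 for IR against control (limma adjusted p = 0.505) and -0.54 for IR+LYC against control (limma adjusted p = 0.262). Mpp5 and Patj, partners in the Crumbs polarity complex, differed by -1.07 and -0.86 for IR+LYC against control, and Magi1 by -0.39 for IR against control. Without IR+LYC 2, 10 of the 19 were called lower and 2 higher for IR+LYC against control, where 15.5% of all genes were called lower and 11.2% higher.

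Among adherens junction partners, 15 were tested, and the median was -0.17 for IR against control and -0.32 for IR+LYC against control. Vcl (vinculin), which links the junction to actin, was 0.45 higher in IR than in control (limma adjusted p = 0.546), at 7.54 ± 0.67 against 5.25 ± 0.47 FPKM (SD, n = 3). Cdh17, an intestinal cadherin, differed by -0.50 for IR against control, and Ctnna1 (alpha-catenin) by -0.48 for IR+LYC against control. Without IR+LYC 2, 8 of 15 were called lower and 0 higher for IR+LYC against control, beside the same 15.5% and 11.2% of all genes. Vinculin is also abundant in smooth muscle, and 8 markers of that tissue summed to 431 to 562 FPKM in control, 1016 to 1349 in IR and 417 to 2159.9 in IR+LYC; the part of muscle in the difference of Vcl was not tested.

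Of 10 desmosome genes, 1, Dsg2 (desmoglein 2), had libraries that did not overlap between IR+LYC and IR, beside 7.45% of all genes. Dsg2 measured 41.8, 33.6 and 37.4 FPKM in IR and 26.4, 32.9 and 27.6 in IR+LYC (log2 difference -0.37, limma adjusted p = 0.994). The 11 other tight junction membrane proteins had medians of -0.09, -0.13 and -0.15, and the 9 tested proteases and inhibitors 0.06, -0.06 and 0.05, for the 3 comparisons in the order used above. Without IR+LYC 2, IR+LYC against control called 5 lower and 1 higher in each of the membrane protein and desmosome lists, 2 lower and 1 higher among the proteases, and 4 lower and 1 higher among the 20 tested regulators described next, again beside 15.5% lower and 11.2% higher of all genes.

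Among 20 tested regulators of junction gene transcription, Klf4, a factor of differentiated epithelium, measured 107, 86.4 and 112 FPKM in the control libraries, 51.8, 17.6 and 56.6 in the IR libraries and 15.0, 73.3 and 19.8 in the IR+LYC libraries, with every irradiated library below the controls. Its log2 difference for IR+LYC against control was -1.81 (SE 0.61; limma adjusted p = 0.327). Snai1 and Snai2, repressors of Cdh1 in other settings, were 0.49 and 0.37 higher in IR than in control (limma adjusted p of at least 0.548), with mean levels between 0.82 and 2.16 FPKM, while Cdh1 itself differed by 0.12. The sum of 7 fibroblast markers was 147 to 158 FPKM in control and 215 to 327 in IR. The part of cell composition in Snai1 and Snai2 was not tested. Ehf, an epithelial ETS factor, was 0.49 higher in IR. Cdx2, an intestinal factor, measured 92.1 ± 8.52 in control and 74.0 ± 7.86 FPKM in IR+LYC (SD, n = 3). No tested regulator had a limma adjusted p below 0.327 for IR+LYC against control.

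**Figure D5:**
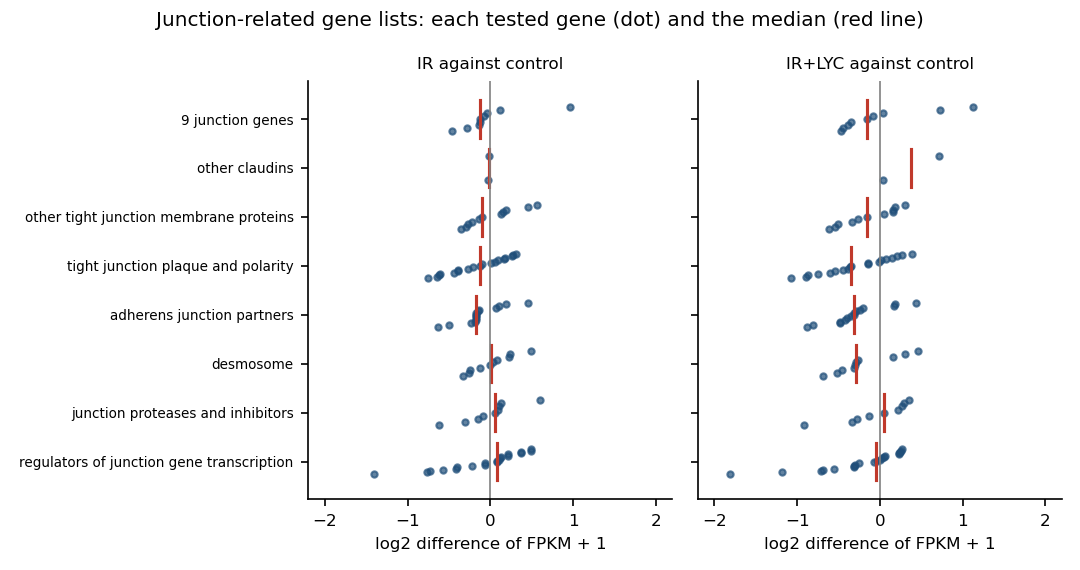
Log2 difference of FPKM + 1 for every tested gene (dots) of the junction-related lists, with the median of each list (red line), for IR against control (left) and IR+LYC against control (right). The medians lie between -0.17 and 0.08 on the left, and on the right those of the plaque, adherens junction and desmosome lists lie between -0.34 and -0.29.

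The genes most alike in pattern were found by the root-mean-square difference of centred log2(FPKM + 1) over the 9 libraries, among 7234 genes; the likeness describes these libraries. Tjp1 was closest to Slain2 and Smap1, at 0.04 each. Cldn15 was closest to Tmed4, Sucla2 and Dqx1, at 0.07 to 0.08, and Cldn7 to Mapk1ip1l, Bloc1s3 and Stat3, at 0.05 to 0.06. Cldn2 had no such close match: its nearest genes, S100a16, Cdo1 and Kcnk1, lay at 0.23, where its own SD was 0.60. Cldn4 was closest to Gsta4 at 0.37, then mt-Tr and mt-Nd3 at 0.43. Ocln was nearest to Fam114a2, Btbd1 and Syf2, Cldn3 to Nelfb, Csnk1g2 and Cdk2ap2, Cldn23 to Abhd11os, Slc25a10 and Tax1bp3, and Cdh1 to Zfp110, Metap1 and Emc3. Between members, Cldn7 and Cldn23 were closest (0.12), followed by Tjp1 and Ocln (0.13), and Cldn2 and Cldn15 farthest apart (1.03).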

How the data were processed

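RNA-seq of mouse intestine, 9 libraries, was deposited as 1 table of FPKM made by the authors. The tools fastp and HISAT2 2.0.5 are named in the submitters' processing notes. The counting tool, strandedness and genome build are not given in the sources used here. All 9 members have the coordinates of GENCODE M21 (GRCm38), which hold for 53585 of 54532 gene IDs. FPKM values above 0 were whole reads times a library constant (202261 of 202261 within 0.01 read). The authors' divisor was 0.854 to 1.26 times the recovered reads of the library.

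The 15391 genes that reached 0.5 FPKM in 3 or more libraries were fitted on log2(FPKM + 1) with limma 3.58.1 (R 4.3.3), 3 groups in 1 model with a mean-variance trend, and p-values adjusted by Benjamini-Hochberg over all of them. A difference on this scale understates the change of low genes. Claudin shares and ratios were compared by exact two-sided permutation. The scripts were tested on simulated data. Figures were drawn with matplotlib 3.10.9 in Python 3.11.15.

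The members and lists were chosen with earlier results of these data known. The text names all members, up to 3 genes of each list with the smallest p in each comparison, and the 3 genes most alike to each member. Of these, 1 gene and 1 list are not reported here. Alternatives were another pseudocount, other filters, other scalings, a replicate block, limma-voom on recovered reads (library size, the authors' divisor) and each library left out. Same-numbered libraries did not deviate together, so numbers were not taken to pair them. Of the listed genes, Cldn25 and Cldn26 have no row and 2 rows are named Igsf5, of which the one with the higher mean was used. No 2 libraries of a group had like counts (chi-square per gene 15.4 to 382).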

Additional observations from a re-analysis of the deposited data

How the results depend on the processing

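Of the member differences recomputed under the alternatives, 472 kept direction and call, 37 reversed and 4 gained a call. IR against control called 3 genes, and 1 with a pseudocount of 0.1, 7 with no filter, 1 at a mean of at least 5 FPKM, 100 with 2 groups compared alone, 0 with the replicate block and 0 by limma-voom. IR+LYC against control called 3, and 0, 6, 1, 1, 0 and 0 in the same order, 0 relative to pan-epithelial genes and 1 when scaled to recovered reads. Leaving out 1 library gave 0 to 98 genes for IR against control and 0 to 4120 for IR+LYC against control, where members ranged from 0 to 4 and, relative to pan-epithelial genes, from 0 to 2; the highest counts were without IR+LYC 2. The replicate block called 0 genes in both, and same-numbered libraries correlated at -0.65 to 0.38, so it is read as a number only. Scaling to recovered reads, chosen after seeing the data, shifted the median of all genes by 0.15, 0.03 and 0.18 and turned Tjp1 to 0.055, Ocln to 0.071, Cldn3 to 0.13, Cldn4 to 0.16 and Cldn23 to 0.061 for IR against control, Ocln to 0.0098 and Cldn3 to 0.030 for IR+LYC against IR, and Ocln to 0.081 and Cldn3 to 0.16 for IR+LYC against control. Median-ratio scaling turned Cldn3 to 0.0048 for IR+LYC against IR. Relative to pan-epithelial genes, the median moved by -0.04, 0.14 and 0.10, IR+LYC against IR was 0.11 for Ocln, 0.13 for Cldn3 and 0.055 for Cdh1, and IR+LYC against control 0.023 for Cldn3. Leave-one-out ranges that crossed 0 were, for IR against control, Cldn3 -0.17 to 0.017, Cldn4 -0.35 to 0.18 and Cldn23 -0.22 to 0.043; for IR+LYC against IR, Ocln -0.16 to 0.067, Cldn2 -0.059 to 0.46, Cldn3 -0.13 to 0.11, Cldn7 -0.40 to 0.019, Cldn15 -0.41 to 0.35 and Cldn23 -0.50 to 0.069; for IR+LYC against control, Cldn3 -0.21 to 0.036 and Cdh1 -0.018 to 0.095. The cause was not tested. Cldn2 stayed above 0 against control in all 19 alternatives, at 0.67 to 1.19 for IR (limma adjusted p = 0.146 to 0.918) and 0.94 to 1.37 for IR+LYC (0.0248 to 0.620). With 3 libraries a group, the spread between libraries, not depth, limits these values.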
